A study of Mus musculus with 35 samples.

Results

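10 genes of antigen presentation were followed here in the mouse hippocampus after intra-amygdala kainic acid (IAKA): the class I genes H2-K1, H2-D1, B2m and Tap1, the immunoproteasome genes Psmb8 and Psmb9, and the class II genes Cd74, H2-Aa, H2-Ab1 and H2-Eb1. They are 10 of the 32544 gene symbols counted, and they were taken by symbol. The mice were young adult males of the wild-type strain C57BL/6JOlaHsd, and each received either kainic acid or PBS into the amygdala through the same surgery. Kainic acid brought on status epilepticus, and was followed by lorazepam, and hippocampi were taken 24 hours later (acute) or 2 weeks later (chronic, when this model has spontaneous seizures). From each mouse RNA was sequenced as total RNA (input) or after immunoprecipitation with an antibody against N6-methyladenosine (m6A). For m6A, 5 mice given IAKA and 3 given PBS were sequenced at 24 hours, and 6 and 5 mice at 2 weeks. Input was sequenced from 4 IAKA and 3 PBS mice of the earlier time and from 6 IAKA and 3 PBS mice of the later, with 1 library a mouse. All libraries are of whole hippocampus, so fewer cells of a type and less RNA per cell cannot be told apart.

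Major histocompatibility complex (MHC) class I molecules carry short peptides from inside the cell to its surface, where cytotoxic T cells read them. Proteasomes cut the peptides, and under interferon the catalytic subunits encoded by Psmb8, Psmb9 and Psmb10 take the places of those encoded by Psmb5, Psmb6 and Psmb7. The transporter formed by Tap1 and Tap2 moves peptides into the endoplasmic reticulum, where they are loaded on heavy chains such as those of H2-K1 and H2-D1, paired with the light chain B2m. Class II molecules present peptides taken up from outside. H2-Aa and H2-Ab1 encode the alpha and beta chain of I-A, H2-Eb1 encodes the beta chain of I-E, and Cd74 is the invariant chain that guides them. In the brain, class I genes are found in many cell types, whereas class II genes mark microglia and other myeloid cells.

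8 of the genes lie in the MHC on chromosome 17. In the RefSeq annotation of GRCm38.p6 (the assembly named mm10), Psmb9 (17:34182030-34187330) and Tap1 (17:34187556-34197225) stand head to head with 225 bases between them, and Psmb8 (17:34198195-34201454) begins 969 bases past the end of Tap1. H2-Ab1 (17:34263227-34269418), H2-Aa (17:34282744-34287823) and H2-Eb1 (17:34305867-34316674) follow. H2-K1 (17:33996012-34000619) and H2-D1 (17:35263094-35267497) lie at the outer sides, and B2m (2:122147687-122153082) and Cd74 are on other chromosomes. Reads from the near-identical H2-K, H2-D and H2-Q genes may have been split or dropped in the counting, so the levels of H2-K1 and H2-D1 are uncertain. B2m overlaps Patl2, and Cd74 overlaps Mir5107, in that annotation.

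Promoter sequence is shown for the genes whose values stood furthest apart between groups, and for H2-D1 and B2m, which hold elements known from class I genes. RefSeq windows were matched for 8 of the 10 genes, and the stretches below run 5′ to 3′ on the gene's own strand, up to the base before its start except for B2m. Capitals mark matches, on either strand, to 4 motifs: the interferon-stimulated response element (GAAA and GAAA on 1 strand with 2 bases of any kind between), the kappaB element of class I genes (the longest run of capitals in the H2-D1 stretch), the Y box (ATTGG) and the gamma-activated site (TTCNNNGAA). No motif overlaps another in these stretches.
Tap1 and Psmb9, the whole gap between them, Tap1 strand (chr17:34187331-34187555): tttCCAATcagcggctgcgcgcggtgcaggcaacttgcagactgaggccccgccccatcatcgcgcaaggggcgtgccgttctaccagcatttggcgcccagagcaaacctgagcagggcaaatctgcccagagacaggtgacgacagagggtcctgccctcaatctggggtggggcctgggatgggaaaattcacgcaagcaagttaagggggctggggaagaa
Psmb8 (chr17:34197945-34198194, plus strand): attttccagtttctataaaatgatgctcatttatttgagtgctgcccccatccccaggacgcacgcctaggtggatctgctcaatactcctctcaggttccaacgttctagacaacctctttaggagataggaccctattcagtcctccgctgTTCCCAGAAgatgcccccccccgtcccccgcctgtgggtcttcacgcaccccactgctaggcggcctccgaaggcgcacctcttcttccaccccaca
H2-D1 (chr17:35262844-35263093, plus strand): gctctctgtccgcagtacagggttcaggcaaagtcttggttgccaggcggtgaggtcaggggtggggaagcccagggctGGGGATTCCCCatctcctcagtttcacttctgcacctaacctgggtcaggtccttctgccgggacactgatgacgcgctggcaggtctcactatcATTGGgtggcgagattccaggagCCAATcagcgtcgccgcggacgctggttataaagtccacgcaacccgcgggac
B2m, 30 bases around its motif (chr2:122147538-122147567, plus strand): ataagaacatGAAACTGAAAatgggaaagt
Over all 32851 RefSeq windows of 250 bases before a gene start, the kappaB element was in 0.0304%, which is 10 windows, and both H2-K1 and H2-D1 were among them. The interferon-stimulated response element, in the exact form given above, was in 2.98% of windows and, among the 8 genes with a window, in B2m alone. Looser forms of this element were not searched, so a gene without capitals may still hold one. The gamma-activated site was in 7.02% and here in Psmb8 alone. The Y box was in 33.8% of windows and in 7 of the 8 genes with a window, all but Psmb8. These are matches of letters and not measured binding.

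Total counts ran from 1652933 to 34564536 in the 19 m6A libraries. In the 16 input libraries they ran from 3171 to 12694434, and the 3 under 100000 (IAKA mouse 97 and PBS mice 71 and 73, all at 24 hours) were left out, which leaves 1 PBS input library at 24 hours. Values are CPM, the usual scaling of a count to the total of its library. A count of 0 still allows up to 3 counts, which is 1.81 CPM in the shallowest m6A library (IAKA 24 hours, mouse 98). Summed CPM of 6 neuronal markers was between 1362 and 3518 in the 19 m6A libraries. The column names of m6A libraries carry the prefix 3, 4 or 5, which is called the library set here. What the prefix stands for is not given in the labels, and no PBS m6A library is in set 3. In the 8 PBS m6A libraries, H2-K1 was at 12.3 to 16.5 CPM in the 4 of set 4 and at 4.58 to 6.29 CPM in the 4 of set 5. H2-D1 was at 19.0 to 28.7 CPM in set 4 and at 8.73 to 18.1 CPM in set 5. The other 8 genes overlapped between both sets, and of all 16157 genes tested at 2 weeks 20.1% were higher in set 4 with no overlap.

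At 24 hours after IAKA, the peptide transporter and immunoproteasome genes stood highest above PBS in m6A libraries. Tap1 was at 1.29, 1.55 and 2.01 CPM in the PBS mice and at 3.02, 3.27, 5.94, 6.06 and 9.53 CPM in the IAKA mice. Psmb8 was at 0.930, 3.17 and 3.58 CPM in PBS and at 4.90, 5.56, 10.6, 11.5 and 11.7 CPM in IAKA. Psmb9 was at 0.394, 0.429 and 0.738 CPM in PBS and at 0.817, 1.21, 1.52, 2.00 and 2.19 CPM in IAKA. For these 3 genes every IAKA library lay above every PBS library, which held for 2.62% of the 16470 genes tested. The 2 shallowest IAKA libraries (mice 67 and 98) rest on few reads here, with 12 and 5 counts of Tap1 and 3 and 2 of Psmb9. The log2 fold change was 1.82 ± 0.49 (SE) for Tap1 (unadjusted P = 0.0038, adjusted P = 0.453 by edgeR). It was 1.74 ± 0.49 for Psmb8 (unadjusted P = 0.00535, adjusted P = 0.519) and 1.65 ± 0.60 for Psmb9 (unadjusted P = 0.0212, adjusted P = 0.755). None of the 10 genes passed an adjusted P of 0.05 by edgeR, where 0.00607% of all genes did, which is 1 gene. At an unadjusted P under 0.05 these 3 of the 10 were higher after IAKA, against 4.02% of all genes. For Psmb9 this did not hold by edgeR without PBS mouse 71 (unadjusted P = 0.107) or without PBS mouse 73 (0.0840). Nor did it hold for Psmb9 with the library set as a block (0.0502) or with no filter on counts (0.0844). By DESeq2, which called 0.947% of all genes, Tap1 passed (adjusted P = 0.0421) and Psmb8 did not (adjusted P = 0.0615).

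**Figure D1:**
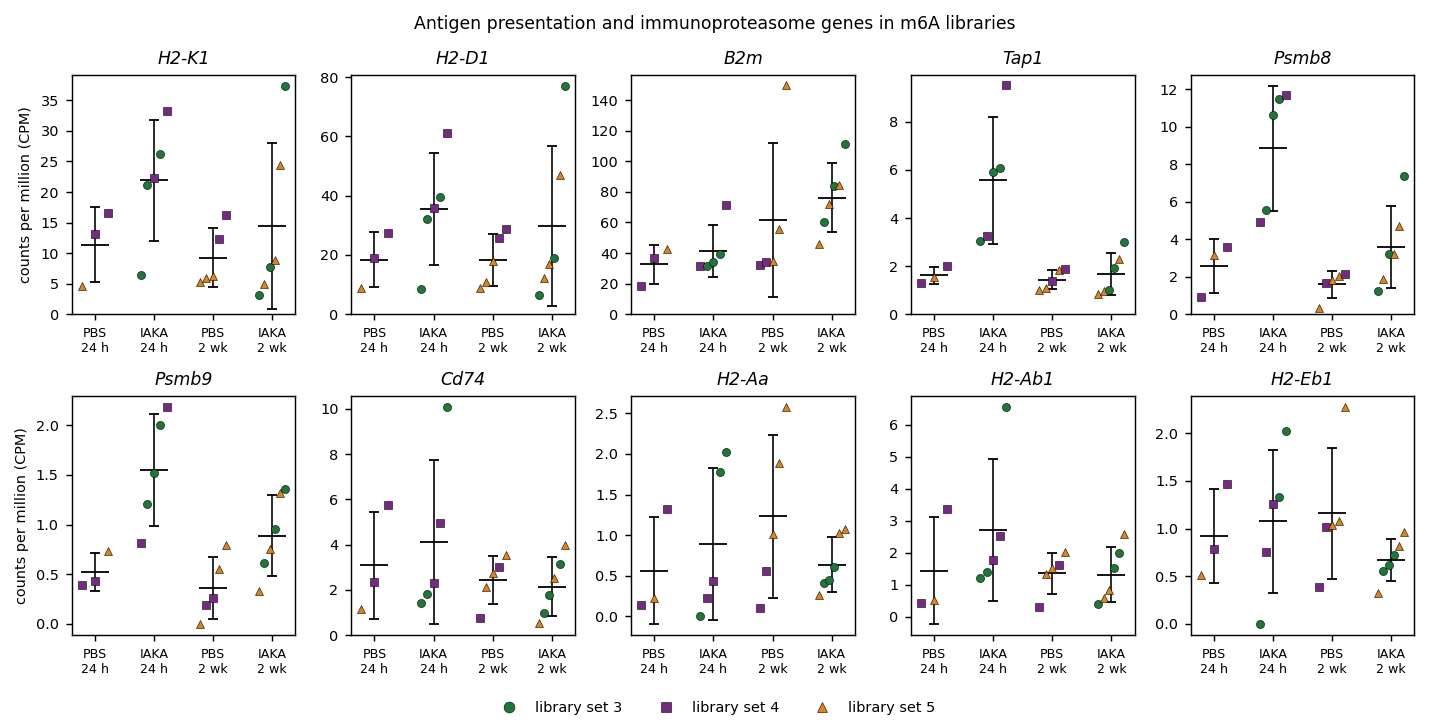
CPM of the 10 genes in the 19 m6A libraries, 1 point per mouse, with group mean and SD as bars and the library set as colour and shape. In Tap1, Psmb8 and Psmb9 the 5 IAKA libraries at 24 hours lie above the 3 PBS libraries, while in H2-K1 the PBS libraries of set 4 lie above those of set 5.

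The class I chains themselves overlapped between the groups at 24 hours. H2-K1 was at 4.58, 13.1 and 16.5 CPM in PBS and at 6.45, 21.2, 22.3, 26.3 and 33.3 CPM in IAKA. H2-D1 was at 8.93, 19.0 and 27.3 CPM in PBS and at 8.61, 32.1, 35.9, 39.4 and 61.3 CPM in IAKA. In both genes 4 IAKA mice lay above all PBS mice, and mouse 8 lay among the PBS values for H2-K1 and just below them for H2-D1, although its Tap1 and Psmb8 were above them. The log2 fold change was 0.86 ± 0.48 for H2-K1 (adjusted P = 0.983) and 0.87 ± 0.50 for H2-D1 (adjusted P = 0.983). B2m, which pairs with every class I heavy chain, was at 18.5, 36.7 and 42.5 CPM in PBS and at 31.3, 31.5, 33.9, 39.4 and 71.2 CPM in IAKA. Its log2 fold change was 0.34 ± 0.35 (adjusted P = 0.983). Without PBS mouse 1, H2-K1 was at 0.49 and H2-D1 at 0.54, and B2m was at 0.066 without IAKA mouse 79.

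Library set was uneven between the groups, since 3 of the 5 IAKA libraries are in set 3. Within set 4, with IAKA mice 79 and 97 against PBS mice 71 and 73, the log2 fold change was 1.85 for Tap1, 1.73 for Psmb8 and 1.80 for Psmb9. In the same 4 libraries it was 0.80 for H2-K1, 0.96 for H2-D1 and 0.79 for B2m. For Tap1, Psmb8 and Psmb9 these values were close to those over all 8 libraries, with adjusted P between 0.133 and 0.236. The split was chosen after seeing the data. In it IAKA mouse 79 was at 9.53 CPM of Tap1 and 11.7 CPM of Psmb8, and mouse 97 at 3.27 and 4.90 CPM. Set 3 holds no PBS m6A library, so set and treatment cannot be told apart there. Without the 2 shallow libraries Tap1 was at 1.97 and Psmb8 at 1.54.

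The class II genes overlapped between the groups in m6A libraries at 24 hours. Cd74 was at 1.18, 2.36 and 5.74 CPM in PBS and at 1.41, 1.81, 2.31, 4.98 and 10.1 CPM in IAKA. H2-Ab1 was at 0.429, 0.517 and 3.37 CPM in PBS and at 1.21, 1.41, 1.78, 2.52 and 6.57 CPM in IAKA. In both genes PBS mouse 71 and IAKA mouse 67 were the high libraries of their groups. H2-Aa ran from 0.143 to 1.33 CPM in PBS and from 0 to 2.02 CPM in IAKA, and H2-Eb1 from 0.517 to 1.47 CPM and from 0 to 2.02 CPM. The library at 0 in both was the shallow IAKA mouse 98. The log2 fold changes were 0.29 ± 0.68 for Cd74, 0.79 ± 0.78 for H2-Ab1, 0.70 ± 1.04 for H2-Aa and 0.27 ± 0.70 for H2-Eb1, with adjusted P of 0.983 or more. These values rest on single libraries: without PBS mouse 71, H2-Ab1 was at 2.33, H2-Aa at 2.28 and Cd74 at 1.03, and without IAKA mouse 67, H2-Ab1 was at 0.31 and Cd74 at -0.23. Cd74 and H2-Eb1 turned below 0 within set 4, at -0.32 and -0.34.

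Over the 10 genes the median log2 fold change at 24 hours was 0.83, against 0.08 over all genes tested. All 10 were above 0, as were 58.0% of all genes tested, and the tallies below stand against that share. With the library set as a block, Cd74 (-0.26), H2-Aa (-1.21) and H2-Eb1 (-0.30) were below 0 and the other 7 above. Of 17 further genes of the class I pathway, 16 were above 0 and none passed the adjusted threshold (median 0.57). Those at an unadjusted P under 0.05 were 4, namely Nlrc5, Tap2, Psmb10 and H2-T23, a nonclassical class I gene named after its values were seen (1.34, adjusted P = 0.609). Nlrc5, the transactivator of class I genes, was at 0.429 to 1.92 CPM in PBS and at 2.42 to 9.16 CPM in IAKA, with no overlap (log2 fold change 2.07, adjusted P = 0.588). Tap2, the partner of Tap1, was at 2.07 to 5.92 CPM in PBS and 4.84 to 11.9 CPM in IAKA (1.01, adjusted P = 0.881). Psmb10 was at 5.22 to 5.98 CPM in PBS and 5.64 to 13.6 CPM in IAKA (0.73, adjusted P = 0.893). Ciita, the transactivator of class II genes, differed by 0.33 (adjusted P = 0.984), and of 7 tested genes of the class II pathway 5 were above 0 and none had an unadjusted P under 0.05. Among 11 tested genes of interferon gamma signalling and MHC regulation, 9 were above 0 and none passed. Irf8, a transcription factor of interferon signalling named after its values were seen, had an unadjusted P under 0.05 (1.10, adjusted P = 0.898). Ifng itself was below the count filter in every comparison.

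The constitutive subunits were counted too, which allows each immunoproteasome gene to be set against the subunit it replaces within the same library. Counts of Psmb8 were 8.84, 19.9 and 27.3% of those of Psmb5 in the PBS m6A libraries at 24 hours, and 30.9, 38.2, 47.5, 67.6 and 105% in IAKA. Counts of Psmb9 were 1.84 to 3.02% of those of Psmb6 in PBS and 3.23 to 10.8% in IAKA. In both pairs the IAKA libraries lay above all PBS libraries. Counts of Psmb10 were 8.73 to 19.8% of those of Psmb7 in PBS and 16.9 to 26.0% in IAKA, which overlapped. These are ratios of counts and not of levels per length, and they use the same Psmb8 and Psmb9 counts as above. The log2 fold changes of Psmb5, Psmb6 and Psmb7 were 0.36, 0.35 and -0.06. Of 14 constitutive core genes, 12 were above 0 with a median of 0.22, where 58.0% of all genes were above 0, and none passed. The 1 at an unadjusted P under 0.05 was Psmb2 (0.80, adjusted P = 0.897), also named after its values were seen.

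**Figure D2:**
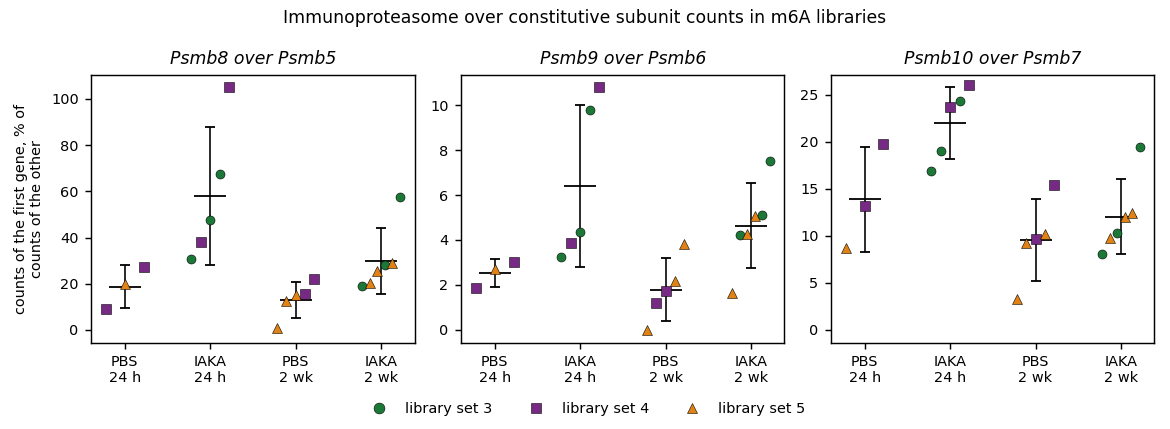
Counts of each immunoproteasome gene as a percentage of the counts of the constitutive subunit it replaces, in m6A libraries, 1 point per mouse, with group mean and SD. Psmb8 over Psmb5 runs from 8.84 to 27.3% in PBS and from 30.9 to 105% in IAKA at 24 hours.

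Markers of other cells moved with these groups in part. The summed CPM of 5 endothelial markers was 290 to 456 in IAKA and 204 to 263 in PBS m6A libraries at 24 hours, with no overlap. The sum of 8 microglial markers was 211 to 345.2 against 223 to 277, that of 7 monocyte and dendritic cell markers 16.9 to 69.2 against 14.9 to 30.8, and that of 8 lymphocyte markers 24.2 to 152 against 50.6 to 54.4, each with overlap. The sums hide genes that moved apart. By log2 fold change 6 microglial markers were above 0 and 2 below (median 0.13). P2ry12, named after its values were seen, was at -1.30 (unadjusted P = 0.00165, adjusted P = 0.323 by edgeR). No gene of these lists was at 0 in all libraries of either group. Their part in the values above was not tested.

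At 2 weeks, Psmb8 and Psmb9 had the largest log2 fold changes of the 10 genes in m6A libraries, and their groups overlapped. Psmb8 was at 0.304, 1.66, 1.80, 2.01 and 2.14 CPM in PBS and ran from 1.26 to 7.35 CPM in the 6 IAKA mice (median 3.20). Psmb9 was at 0, 0.195, 0.263, 0.550 and 0.792 CPM in PBS and ran from 0.327 to 1.36 CPM in IAKA (median 0.853). PBS mouse 4 was the lowest in both and had no count of Psmb9, where 3 counts would be 0.456 CPM. The log2 fold change was 1.199 ± 0.468 for Psmb8 (unadjusted P = 0.0226, adjusted P = 0.875) and 1.28 ± 0.56 for Psmb9 (unadjusted P = 0.0377, adjusted P = 0.875). No gene passed by edgeR (0% of 16157) and none of the 10 by DESeq2. These 2 of the 10 were higher at an unadjusted P under 0.05, against 2.85% of all genes. With the library set as a block, neither was under 0.05 (Psmb8 at unadjusted P = 0.0843 and Psmb9 at 0.326), and the same held within set 5 (0.0731 and 0.384). None of the 10 was without overlap, which 0.26% of all genes were with IAKA higher.

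Tap1 was at 1.01, 1.10, 1.36, 1.82 and 1.88 CPM in PBS at 2 weeks and ran from 0.819 to 3.01 CPM in IAKA (median 1.46), a log2 fold change of 0.29 ± 0.39 (adjusted P = 0.898). H2-K1 ran from 3.13 to 37.4 CPM in IAKA (median 8.30), against 5.32, 5.98, 6.29, 12.3 and 16.3 CPM in PBS. H2-D1 ran from 6.46 to 77.2 CPM in IAKA (median 17.9), against 8.73, 10.8, 18.1, 25.7 and 28.7 CPM in PBS. In both genes the spread lay among the IAKA mice: mice 42 and 21 were above every PBS library and mouse 6 was below every one, as was mouse 7 for H2-K1. The log2 fold changes were 0.69 ± 0.56 and 0.74 ± 0.54 (both adjusted P = 0.875). Without IAKA mouse 42 they were 0.15 and 0.20, and that of Tap1 was 0.047. Within set 5, with IAKA mice 7, 9 and 21 against PBS mice 2, 3 and 4, they were 1.21 and 1.12, that of Psmb8 was 1.26 and that of Psmb9 was 0.78. B2m was at 32.1, 34.4, 35.0, 55.7 and 149.9 CPM in PBS and at 45.8 to 112 CPM in IAKA (median 78.0). Its log2 fold change was 0.41 ± 0.42 over all libraries (adjusted P = 0.886) and -0.17 within set 5, where PBS mouse 4 holds the highest value. Without that mouse it was 1.06.

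The class II genes were not higher after IAKA at 2 weeks. Cd74 ran from 0.523 to 3.97 CPM in IAKA (median 2.15) and was at 0.780, 2.14, 2.74, 3.00 and 3.53 CPM in PBS (log2 fold change -0.11 ± 0.49). H2-Ab1 ran from 0.409 to 2.58 CPM in IAKA and from 0.292 to 2.02 CPM in PBS (0.00 ± 0.52). H2-Aa ran from 0.262 to 1.07 CPM in IAKA and from 0.0975 to 2.58 CPM in PBS (-0.83 ± 0.60). H2-Eb1 ran from 0.327 to 0.962 CPM in IAKA and from 0.390 to 2.28 CPM in PBS (-0.67 ± 0.43). All 4 overlapped between the groups, with adjusted P of 0.875 or more. Without PBS mouse 4, H2-Aa was at -0.43 and H2-Eb1 at -0.34. Over the 10 genes the median was 0.35, against 0.00 over all genes, and 7 were above 0, as were 49.8% of all genes. Of the 17 further class I pathway genes 10 were above 0 (median 0.18), and none past the adjusted threshold. At an unadjusted P under 0.05 were 2 of them, Nlrc5 at a log2 fold change of 1.04 and H2-T23 at 0.69 (both adjusted P = 0.875). Of 6 tested class II pathway genes 5 were above 0 and none passed, and 3 had an unadjusted P under 0.05. These 3, named after their values were seen, were H2-DMb2 (1.06), a chain of the molecule that exchanges class II peptides, Ifi30 (1.09), a lysosomal reductase, and Ctss, the lysosomal protease that trims the invariant chain. Ctss was at 47.3 to 80.4 CPM in PBS and 94.7 to 241 CPM in IAKA, with no overlap (1.45, adjusted P = 0.43). Of the 10 tested interferon gamma and MHC regulators 6 were above 0, and of the 14 constitutive proteasome genes 9, with no unadjusted P under 0.05 in either. Summed microglial markers were at 229 to 535 CPM in IAKA and 172 to 255 CPM in PBS, and their part was not tested.

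**Figure D3:**
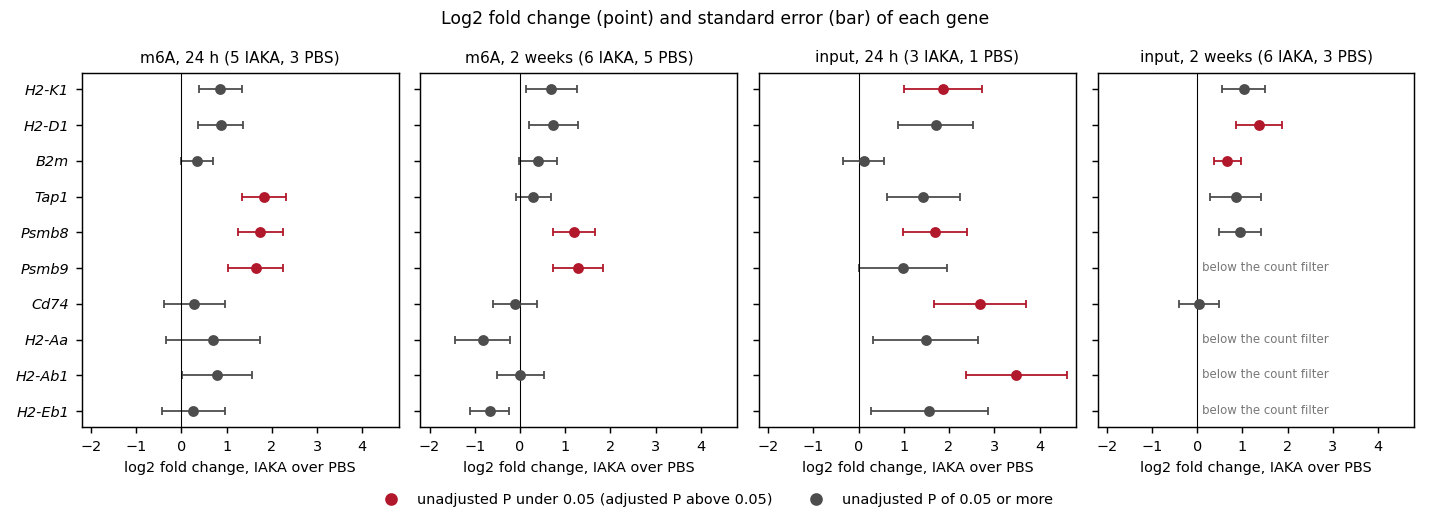
Log2 fold change of IAKA over PBS with its standard error for the 10 genes in m6A and input libraries at both times, in red where the unadjusted P was under 0.05. No gene passed the adjusted threshold, and Psmb8 is between 0.94 and 1.74 in all 4 panels.

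The change of the IAKA effect from 24 hours to 2 weeks was tested as an interaction over all 19 m6A libraries. None of the 10 genes passed by edgeR, where 0.00573% of all genes did (1 gene), and none by DESeq2. Tap1 had the smallest P of the 10, with an effect lower by 1.53 ± 0.60 on the log2 scale at 2 weeks (coded as -1.53, unadjusted P = 0.0195, adjusted P = 1). It was the only one of the 10 at an unadjusted P under 0.05. For Psmb8 the change was -0.55 ± 0.70 and for Psmb9 -0.35 ± 0.87, so that a lasting and a fading difference cannot be told apart at this spread.

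Input libraries measure the RNA without immunoprecipitation. At 2 weeks, 6 of the 10 genes passed the filter on low counts, and Psmb9, H2-Aa, H2-Ab1 and H2-Eb1 did not. H2-D1 was at 8.39, 9.69 and 9.99 CPM in PBS and ran from 9.59 to 42.8 CPM in IAKA (median 19.3). H2-K1 was at 5.99, 6.29 and 9.11 CPM in PBS and ran from 5.75 to 28.7 CPM in IAKA (median 10.9). B2m was at 17.4, 19.4 and 27.3 CPM in PBS and ran from 19.2 to 52.4 CPM in IAKA (median 31.0). Mice 42 and 21 were the highest IAKA mice for all 3 genes, as they were for H2-K1 and H2-D1 in m6A libraries. Psmb8 was at 0.570, 2.44 and 2.62 CPM in PBS and ran from 1.79 to 5.89 CPM in IAKA, Tap1 was at 0.699, 1.43 and 1.78 CPM and from 0.895 to 4.68 CPM, and Cd74 was at 1.43, 1.57 and 3.55 CPM and from 1.15 to 3.18 CPM. All 6 overlapped between the groups, where 2.64% of the 13752 genes tested did not overlap with IAKA higher.

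The log2 fold change in input at 2 weeks was 1.36 ± 0.51 for H2-D1 (unadjusted P = 0.0211, adjusted P = 0.299), 1.03 ± 0.47 for H2-K1 (0.0507 and 0.356) and 0.67 ± 0.30 for B2m (0.0454 and 0.35). It was 0.85 ± 0.56 for Tap1, 0.94 ± 0.46 for Psmb8 and 0.04 ± 0.45 for Cd74. Tap1 was at 0.50 without PBS mouse 4, and Psmb8 was at 0.62 without PBS mouse 3. None of the 6 passed by edgeR (0% of all genes) and none by DESeq2. At an unadjusted P under 0.05, 2 of the 6 were higher, against 8.41% of all genes. Within the libraries without a prefix (IAKA mice 5, 21 and 42 and all 3 PBS mice), H2-D1 was at 1.81, H2-K1 at 1.55, B2m at 0.94 and Psmb8 at 1.196, with adjusted P between 0.163 and 0.261. The sum of microglial markers was 197 to 420 CPM in IAKA and 136 to 213 CPM in PBS. The lymphocyte marker Nkg7 was at 0 in the 6 IAKA and 3 PBS libraries. Their part was not tested.

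In input at 2 weeks 52.4% of all genes were above 0. The other pathway genes were mostly above 0 for class I (13 of 14 tested, median 0.27) and class II (4 of 4, median 0.88), and none passed the adjusted threshold. The ones with an unadjusted P under 0.05 are named after their values were seen. They were H2-T23 (log2 fold change 0.53) for class I, and Ctss (1.33) and Ifi30 (2.48) for class II. Ctss was at 33.6 to 55.1 CPM in PBS and 67.5 to 200.1 CPM in IAKA, with no overlap, as in m6A libraries. Of 10 tested regulators 8 were above 0, with Irf8 (1.91), Irf1 (1.00) and Ifngr1 (0.71) at an unadjusted P under 0.05. Irf8 was at 1.71 to 2.45 CPM in PBS and 2.68 to 13.1 CPM in IAKA, and Irf1 at 2.27 to 2.44 CPM and 2.68 to 8.12 CPM, both with no overlap. The constitutive proteasome genes lay the other way, with 2 of 14 above 0 and a median of -0.12, and Psma6 (-0.33) had an unadjusted P under 0.05.

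**Figure D4:**
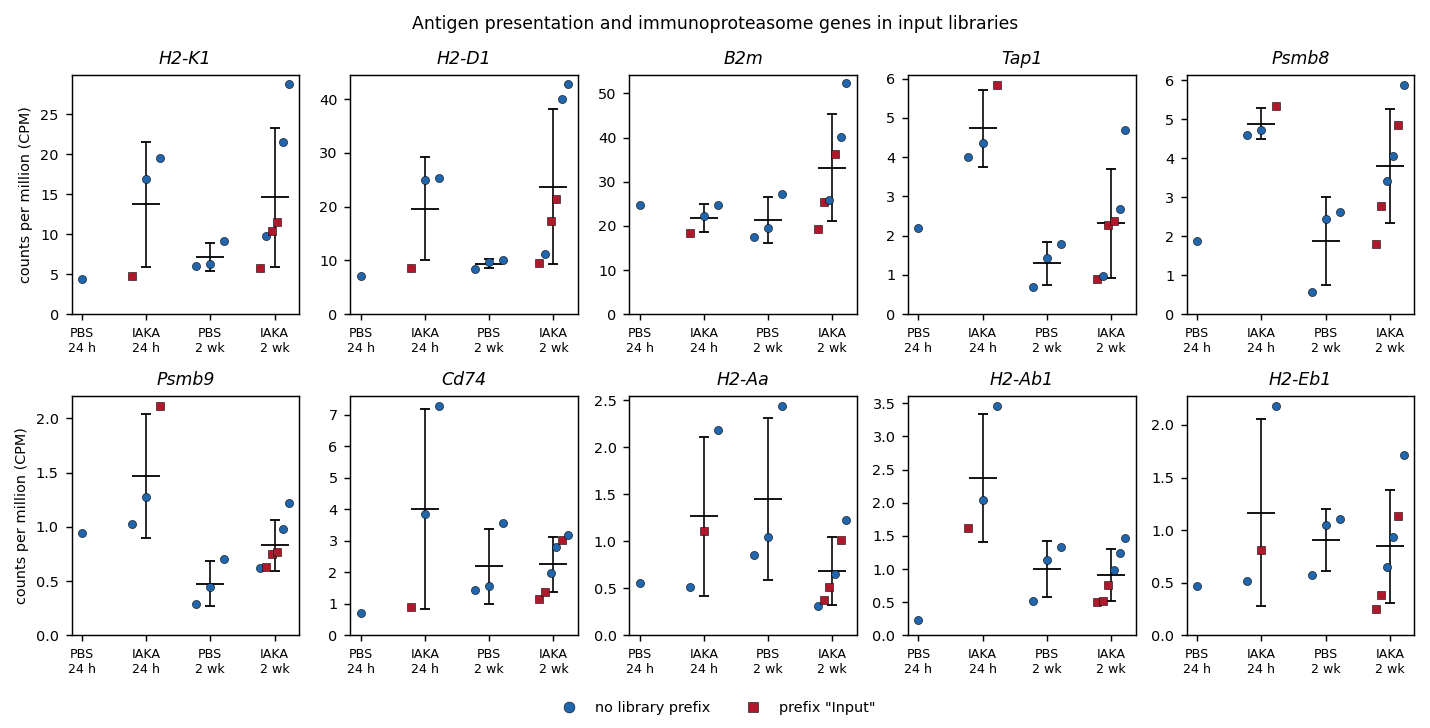
CPM of the 10 genes in the 13 input libraries of at least 100000 counts, 1 point per mouse, with group mean and SD where a group has more than 1 library. At 24 hours a lone PBS library is set against 3 IAKA libraries.

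At 24 hours the input comparison rests on a lone PBS library, whose spread was taken from the other groups of the joint fit. H2-Ab1 was at 0.236 CPM in it (3 counts) and at 1.61, 2.05 and 3.46 CPM in the IAKA mice. Cd74 was at 0.709 CPM (9 counts) and at 0.908, 3.84 and 7.27 CPM. H2-K1 was at 4.41 CPM and at 4.74, 16.9 and 19.5 CPM, H2-D1 at 7.17 CPM and at 8.67, 24.9 and 25.3 CPM, and B2m at 24.8 CPM and at 18.5, 22.3 and 24.7 CPM. Tap1 was at 2.21 CPM and at 4.00, 4.35 and 5.85 CPM, Psmb8 at 1.89 CPM and at 4.61, 4.73 and 5.35 CPM, and Psmb9 at 0.945 CPM and at 1.02, 1.27 and 2.12 CPM. Mouse 8 was again close to PBS for H2-K1, H2-D1 and Cd74 and the highest for Tap1, Psmb8 and Psmb9. H2-Aa was at 0.551 CPM and at 0.512 to 2.18 CPM, and H2-Eb1 at 0.473 CPM and at 0.512 to 2.18 CPM.

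The log2 fold change was 3.49 ± 1.11 for H2-Ab1 (unadjusted P = 0.00729, adjusted P = 0.39), 2.69 ± 1.02 for Cd74 (0.0195 and 0.456), 1.86 ± 0.86 for H2-K1 (0.0499 and 0.541) and 1.69 ± 0.72 for Psmb8 (0.0336 and 0.501). It was 1.70 ± 0.83 for H2-D1, 1.43 ± 0.80 for Tap1, 0.99 ± 0.97 for Psmb9, 1.48 ± 1.16 for H2-Aa, 1.56 ± 1.29 for H2-Eb1 and 0.11 ± 0.45 for B2m. All genes tested had a median of 0.27 here (-0.04 with scaling by library size), so these folds are best read against it. None of the 10 passed by edgeR (0% of 17644 genes) or by DESeq2. With an unadjusted P under 0.05, 4 of the 10 were higher, against 4.99% of all genes. Of all genes tested 66.0% were above 0. Of 17 class I pathway genes 14 were above 0 (median 0.83), and of 8 class II genes 7 (median 0.95). Of 10 regulators 5 were above 0 (median 0.10) and of 14 constitutive proteasome genes 4 (median -0.28). None of these pathway genes passed. Within the libraries without a prefix (IAKA mice 67 and 98 against PBS mouse 1, with the spread shared with the libraries at 2 weeks), H2-K1 (2.25, adjusted P = 0.0435) and Cd74 (3.17, adjusted P = 0.0382) passed, as did 2.32% of all genes. That fit leaves out mouse 8, which was near PBS for both genes. The summed blood markers were at 7.42 to 35.6 CPM in IAKA and 5.28 CPM in the PBS library, those of monocytes and dendritic cells at 26.9 to 60.2 CPM and 23.5 CPM, and those of neurons at 1648 to 2754 CPM and 3762 CPM. Summed endothelial markers, which did not overlap in m6A libraries at this time, were at 422 to 1200 CPM in IAKA and 883 CPM in the PBS library. The part of these markers in the values was not tested.

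The change of the IAKA effect between the times in input libraries was -3.63 ± 1.23 for H2-Ab1 (unadjusted P = 0.0107) and -2.63 ± 1.14 for Cd74 (unadjusted P = 0.0371), and both had an adjusted P of 1. None of the 10 passed by edgeR (0% of all genes) or by DESeq2, and these were the 2 with an unadjusted P under 0.05. Both rest on the lone PBS library at 24 hours, so that this library and the group cannot be told apart.

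Because 13 mice had both an m6A library and an input library of enough depth, the ratio of both could be taken within a mouse. The labels give polyA RNA for the m6A libraries and total RNA for the input, so the ratio holds that difference as well as the antibody's. B2m was higher in the m6A library in 13 of 13 mice, with a log2 ratio from 0.18 to 2.72 and a median of 0.73. The share of all genes for which this held was not computed, so how unusual it is cannot be said. The other 9 genes were above 0 in 4 to 8 of the 13 mice, with medians from -0.49 to 0.28. At 2 weeks the B2m ratio was 1.05 ± 0.47 (SD, n = 6) in IAKA and 1.43 ± 1.12 (SD, n = 3) in PBS mice. The difference by interaction of treatment and assay was -0.65 ± 0.57 (unadjusted P = 0.271, adjusted P = 1), and it was 0.20 without the m6A library of PBS mouse 4. None of the 8 genes tested passed by edgeR (0% of 15722 genes), none had an unadjusted P under 0.05, and none passed by DESeq2. The libraries of a mouse did not always go together: of the 9 mice at 2 weeks, 3 had an m6A library whose deviation from its group was most like that of its own input library, and the correlations with the own input library ran from -0.59 to 0.64. In the 3 PBS mice these correlations were -0.306, -0.594 and -0.595. The ratios hold only if the mouse numbers are right, which correlations over so few genes cannot settle.

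**Figure D5:**
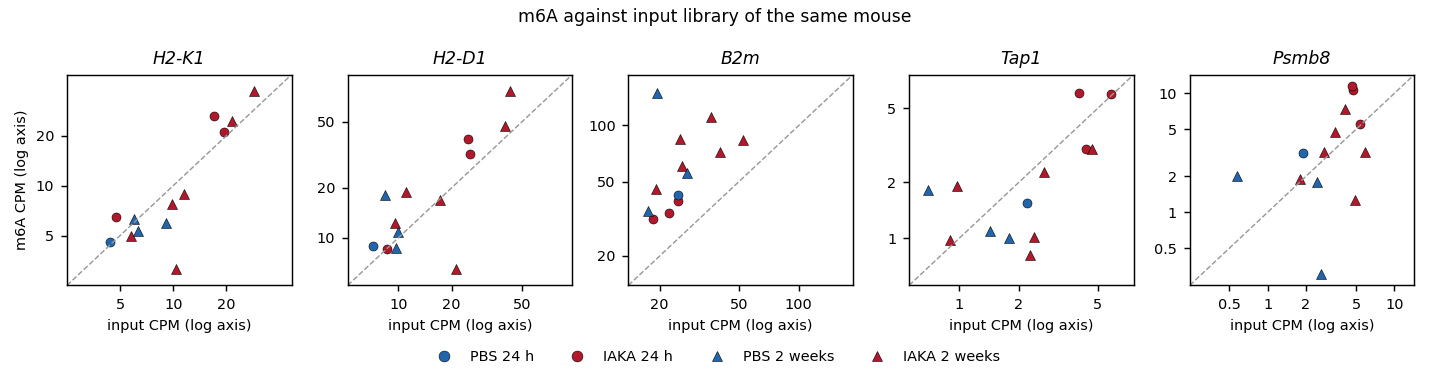
CPM in the m6A library against CPM in the input library of the same mouse for 5 genes in 13 mice, on log axes, with a dashed line where both are equal. All 13 points of B2m lie above the line, and the points of the other 4 genes lie on both sides of it.

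Across the 19 m6A libraries, which share library sets and differ in depth, some of the genes varied together. Log2 CPM of H2-K1 and H2-D1 had a Pearson r of 0.942, that of Psmb8 and Psmb9 0.853, that of Cd74 and H2-Ab1 0.849, and that of H2-Aa and H2-Eb1 0.825. B2m did not follow the heavy chains (r = -0.251 with H2-K1 and -0.0284 with H2-D1). Of 17440 genes, those most like B2m were Sh3glb1 (r = 0.854), Cpne3 (r = 0.85), Cd164 (r = 0.84), BC005537 (r = 0.835) and Efcab14 (r = 0.814). Those most like Cd74 were H2-Ab1, Zmynd10 (r = 0.755), Wrap53 (r = 0.742), Trappc6a (r = 0.717) and Exosc4 (r = 0.706).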

How the data were processed

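Whole-hippocampus RNA was sequenced as 16 input and 19 m6A libraries with a stranded total RNA kit. The authors deposited counts per gene symbol for each of 4 lanes in 15 files, with no normalization. The submitters' processing notes name mm10. How reads were aligned and counted, and whether strand was used, is not given in the sources used here. Reads of overlapping genes can therefore not be told apart.

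Lanes were summed per library. Of 148 columns 140 were used, and 8, named as input of mice without an input label, were left out. The assay stands in the column names of 8 libraries. For the other 27, columns with the prefix 3, 4 or 5 were read as m6A and those without as input. Group and mouse number came from the labels. By the labels, a mouse number marks the same animal in both assays.

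Groups were compared with edgeR 4.0.16 under R 4.3.3 (filterByExpr, TMM, robust quasi-likelihood fit, Benjamini-Hochberg adjustment over all genes tested, threshold 0.05) on the counts. SE is the absolute log2 fold change over the square root of F. Input libraries at 24 hours were fitted with all 13 input libraries. The m6A against input test had no mouse block, and 4 of 9 mice had a correlation above 0.1 with their own input library. DESeq2 1.42.0 was an alternative, beside scaling by library size, 2 other filters, the library set as a block, other sample sets and each library left out. Likeness of pattern was Pearson's r of log2 CPM (prior count 2). The fits were tested on simulated data. Tables and plots used Python 3.11.15, pandas 2.3.3, numpy 2.4.6 and matplotlib 3.10.9.

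The 10 genes, the gene lists and the marker lists were chosen with earlier results of these data known. The rule for named genes took the 10 genes, Psmb5, Psmb6, Psmb7, Psmb10, Tap2, Nlrc5 and Ciita, up to 5 genes per pathway list past the threshold (there were none) and the 5 genes most like B2m and Cd74. Other pathway genes and markers in the text, such as H2-T23, Ctss and Irf8, fall outside this rule and were named after their values were seen. Count limits cover counting error only.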

Additional observations from a re-analysis of the deposited data

Results flagged for a closer look

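Of 40 groups of 4 to 10 libraries tested for a single value far from the rest, 4 had one, where chance gives about 1 in 20. B2m was at 71.2 CPM in the m6A library of IAKA mouse 79 at 24 hours, above the other 4 IAKA mice. B2m was at 149.9 CPM in the m6A library of PBS mouse 4 at 2 weeks, and Psmb8 was at 0.304 CPM in the same library, the highest and the lowest of their group. H2-Ab1 was at 6.57 CPM in the m6A library of IAKA mouse 67 at 24 hours, which rests on 13 counts.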

How the results depend on the processing

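The number of the 10 genes past the adjusted threshold was 0 for each comparison and stayed at 0 under each alternative except 2. By DESeq2 it was 1 in m6A libraries at 24 hours (Tap1, log2 fold change 1.81), and within the input libraries without a prefix at 24 hours it was 2 (H2-K1 and Cd74). With 1 library left out it ran from 0 to 0. Of 692 single-gene values under an alternative, 656 kept their direction and their side of the threshold, 33 changed sign and 3 passed the threshold. No sign change was in H2-K1, H2-D1, Tap1, Psmb8 or Psmb9.

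In m6A libraries at 24 hours, with the library set as a block, Cd74 was at -0.26, H2-Aa at -1.21 and H2-Eb1 at -0.30. Within set 4 Cd74 was at -0.32 and H2-Eb1 at -0.34, and without the 2 shallow libraries Cd74 was at -0.14. With 1 library left out, Cd74 ran from -0.23 to 1.03, H2-Eb1 from -0.020 to 0.71, Tap1 from 1.54 to 1.95 and Psmb8 from 1.37 to 2.03. At 2 weeks H2-Ab1 was at -0.0048 by DESeq2, -0.056 by library size, -0.22 with the block, -0.0017 in a fit of all 4 groups and -0.20 within set 5. B2m was at -0.20 with the block and -0.17 within set 5. With 1 library left out, Cd74 ran from -0.37 to 0.091 and H2-Ab1 from -0.30 to 0.19. In input libraries, scaling by library size gave -0.19 for B2m at 24 hours and -0.0060 for Cd74 at 2 weeks, where leaving out 1 library gave -0.17 to 0.51. For m6A over input, B2m ran from -1.01 to 0.20, and with the mouse as a replicate block it was -0.39 (unadjusted P = 0.384, adjusted P = 0.879), and this pairing changed no call of the genes tested. The causes were not tested.

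Over all genes the counts past the threshold by edgeR were 1, 0, 0, 0, 1, 0 and 0 in the order of m6A at 24 hours, m6A at 2 weeks, input at 24 hours, input at 2 weeks, change over time in m6A, change over time in input, and m6A over input. By DESeq2 they were 156, 15, 197, 116, 5, 9 and 2. With no filter the first 4 were 22, 2, 3 and 4. Library size gave 3 in m6A and 1 in input at 24 hours, and moved the median of all genes from 0.27 to -0.04 in input at 24 hours and from -0.17 to 0.12 in its change over time. The block gave 0 in m6A at 24 hours, 2 in input at 24 hours and 2 in the change over time in m6A. A fit of all 4 m6A groups gave 31 at 24 hours and 1 at 2 weeks, set 4 alone 356, the input libraries without a prefix 342, and the m6A libraries without the 2 shallow ones 0. All labelled input libraries gave 8 at 24 hours and 1 in the change over time, and the mouse block gave 1. With 1 library left out the counts ran from 0 to 45 in m6A and 0 to 180 in input at 24 hours, the highest in both without IAKA mouse 8, and from 0 to 1 in each assay at 2 weeks. Leaving out the lone PBS input library at 24 hours was not possible. Alternatives within library sets and without shallow libraries were chosen after seeing the data.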
